A study of Mus musculus with 12 samples.

Results

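The comparison described here is between 2 ages of the 92Q mutant mouse. It sets the cerebellar RNA values of 29-week 92Q animals against those of 12-week 92Q animals, gene by gene. Every gene entered that had a value of 5 or more at one or both of these ages and a readable name, and 7667 of the 7684 genes in the table met that rule. The other 17 carried a bare number in place of a gene name and were left out.

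The study measured total RNA of whole cerebellum in fxSCA7 92Q mice, which carry 92 CAG repeats in ataxin-7 and model spinocerebellar ataxia type 7, and in their wild-type littermates, at 12 and 29 weeks. Each of these 4 conditions had 3 libraries, and a library was made from the pooled tissue of 3 mice, so the 92Q comparison rests on 6 libraries and 18 mice. The labels name no treatment and no Cre for any group, and give colony housing only as standard. The authors deposited 1 normalized score per gene and condition, with their 3 libraries already combined.

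A value below is therefore the authors' score for a whole condition, and the comparison has no replicate check and no test. The words higher and lower describe these scores only. An age ratio is log2 of the 29-week score plus 1 over the 12-week score plus 1, so 1 means a doubling and genes with low scores have understated ratios. Scores are not stated to be per unit of length, so they are compared for the same gene across conditions and not between genes. Library numbers in the labels fall into separate ranges for the 2 ages in both genotypes, so age and library order cannot be told apart. The 4 columns shared a median score of 22, and their sums over the 7667 genes ran from 322446 to 333581. Because scores are whole numbers, a log2 ratio carries a rounding range of 0.13 either way at a score of 10 and of 0.06 at a score of 22.

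Spinocerebellar ataxia type 7 is caused by a longer glutamine tract in ataxin-7, a subunit of the SAGA complex that modifies chromatin at active genes. The cerebellum and the retina degenerate, and in the cerebellar cortex the Purkinje cells, its sole output neurons, are among the affected cells. Purkinje cells read the input of granule neurons and climbing fibres through the glutamate receptor mGluR1, the IP3 receptor and large calcium stores, while Bergmann glia, microglia and oligodendrocytes surround and support them.

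Most genes had nearly the same score at both ages in 92Q. The median ratio over all genes was 0, and 76.1% of genes lay within 1.1-fold. By any amount, 3247 genes were higher at 29 weeks (42.4%), 2712 were lower (35.4%) and 1708 were equal. At least 1.5-fold higher were 75 genes, or 0.978% of those compared, and at least 1.5-fold lower were 37, or 0.483%. In wild-type animals over the same ages 17 genes were at least 1.5-fold higher (0.222% of 7663) and 11 were lower (0.144%).

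Part of the strongest ratios belonged to the gene lists, while 27 of the 75 higher and 19 of the 37 lower genes were on none of the 41 lists. Of the 75 higher genes, 25 are on the lists of microglia or of activated microglia and macrophages, which together have 37 measured members, and 13 are on the lists of choroid plexus, meninges or blood (34 members). Of the 37 lower genes, 11 are on the lists of Purkinje cell markers or Purkinje calcium signalling (76 members), and 0 members of those lists were among the higher genes. For 71 of the 75 the 29-week 92Q score was the highest of the 4 conditions. Among the 3247 genes higher by any amount that held for 2007, which is 26.2% of all genes. For 34 of the 37 it was the lowest, and among the 2712 genes lower by any amount that held for 1312, or 17.1% of all genes. The 75 and the 37 were chosen on this same score, so these shares are a description. A gene is in the table only if it reached 10 in some condition, and 27 of the 75 reached 10 in 29-week 92Q alone, so their direction was fixed by that. Of the 37 lower genes 0 had reached 10 in 12-week 92Q alone.

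**Figure D1:**
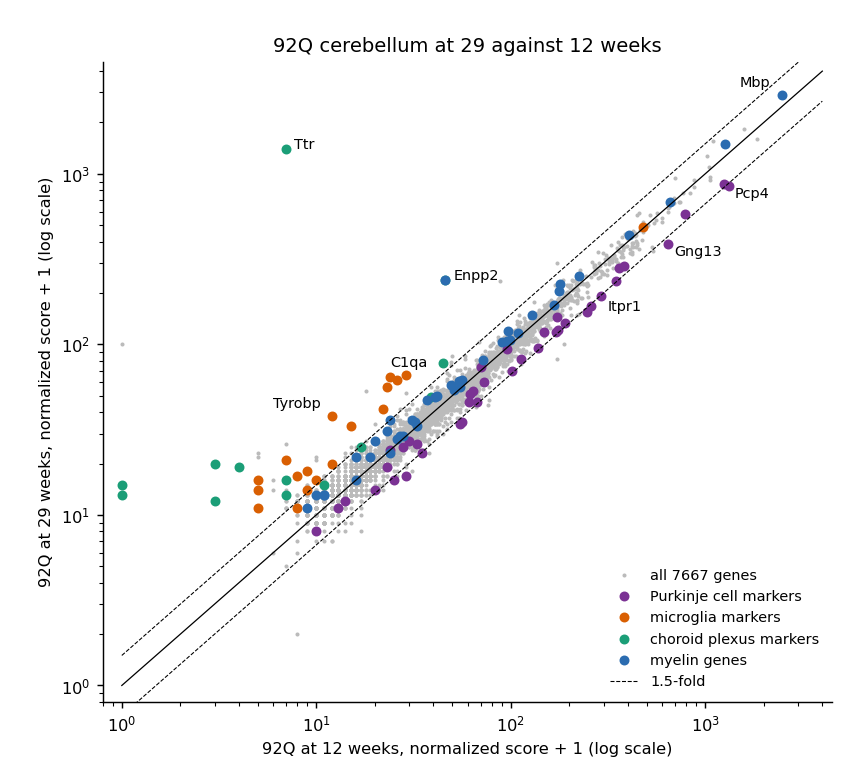
Scores plus 1 of 7667 genes in 92Q cerebellum at 12 weeks (x) and 29 weeks (y), both on log scales, with 4 gene lists coloured, the line of equality solid and the 1.5-fold lines dashed; a gene on 2 lists has 1 colour. Purkinje cell markers lie along or below the lower side of the diagonal at all levels, while microglia markers other than Sparc lie above it at scores under 100 and Ttr stands far from the rest at 6 and 1403.

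The lower genes are described first. Purkinje cell markers were lower at 29 weeks as a group: of 39 measured markers 37 were lower, 1 was higher and 1 was equal, with a median ratio of -0.46 against 0 for all genes. At least 1.5-fold lower were 10 of them (background 0.483%). The 29-week 92Q score was the lowest of the 4 conditions for 35 of the 39. In wild type the same markers had a median age ratio of -0.16, with 29 lower and 5 higher. The difference between the 2 age ratios was below 0 for 37 markers, with a median of -0.31. In whole tissue, fewer Purkinje cells and less of these RNAs per cell cannot be told apart.

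Promoter sequences of these genes are shown because the list moved together and many Purkinje genes are known targets of the nuclear receptor ROR-alpha, whose half-site is AGGTCA. Searching the 250 bases before each start on both strands, 8 of the 27 markers with a RefSeq promoter held this motif (29.6%), against 12.4% of the 5846 compared genes with one and 15.8% of all 27025 genes. Those 27 genes have 42 start windows, and 28.6% of the windows held it, against 10.1% for the compared genes and 14% of all windows. Of the clock genes and microglia markers with a promoter, 26.3% and 23.1% held it too. Windows are from RefSeq on GRCm38.p6, each written 5′ to 3′ on the gene's own strand and ending at the base before the start, with the motif in capitals (TGACCT is AGGTCA read from the other strand). A match is only a match of letters and no binding was measured.
Pcp2, chr8:3625548-3625797, minus strand: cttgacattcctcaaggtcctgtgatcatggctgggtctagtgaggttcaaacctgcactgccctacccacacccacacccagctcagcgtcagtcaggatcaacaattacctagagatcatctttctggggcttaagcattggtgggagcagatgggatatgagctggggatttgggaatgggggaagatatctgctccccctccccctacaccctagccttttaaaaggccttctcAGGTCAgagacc
Pcp4, chr16:96467356-96467605, plus strand: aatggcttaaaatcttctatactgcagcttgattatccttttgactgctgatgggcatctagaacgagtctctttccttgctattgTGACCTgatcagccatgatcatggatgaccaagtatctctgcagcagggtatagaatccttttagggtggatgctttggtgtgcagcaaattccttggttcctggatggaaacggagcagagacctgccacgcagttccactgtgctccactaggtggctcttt
Arhgef33, chr17:80307157-80307406, plus strand: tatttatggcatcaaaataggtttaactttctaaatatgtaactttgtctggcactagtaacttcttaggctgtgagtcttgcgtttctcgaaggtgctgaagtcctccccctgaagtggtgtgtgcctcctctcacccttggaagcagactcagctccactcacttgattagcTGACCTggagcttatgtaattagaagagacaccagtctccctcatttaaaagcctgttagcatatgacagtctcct
Pcp2 has 4 start windows, and the first that holds the motif is shown. There the motif begins 12 bases before the start, and it is farther away in Arhgef33 (76) and Pcp4 (164). In the 3 windows shown, the motif is on the gene's own strand in Pcp2 only.

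These 3 genes, picked as examples from the 8 markers with the motif, were all lower with age in 92Q, as were 37 of the 39 markers. Markers with and without the motif were not compared. Pcp2, a Purkinje protein that modulates G protein signalling, scored 1661 and 1324 in wild type at 12 and 29 weeks, and 1241 and 871 in 92Q (ratio -0.51). Pcp4, a small calmodulin regulator, scored 1749 and 1432 in wild type and 1318 and 843 in 92Q (-0.64). Arhgef33, a predicted exchange factor of small GTPases, scored 64 and 58 in wild type and 54 and 33 in 92Q (-0.69). Each was already lower in 92Q at 12 weeks, was lower with age in wild type too, and reached its lowest score in 29-week 92Q.

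That order of 4 values was common among the markers. It includes a lower score at 29 than at 12 weeks in 92Q, which 37 of the 39 markers and 35.4% of all genes had. Its share among the markers therefore partly repeats that result and is a description only. Lower with age in both genotypes and lower in 92Q at both ages were 26 of the 39 (66.7%), against 594 of all 7667 genes (7.75%). The G protein gamma subunit Gng13 (chromosome 17, 25717171 to 25719406) was one of these, with 935 and 759 in wild type and 641 and 386 in 92Q, a ratio of -0.73. Rgs8, which speeds the shut-off of G proteins, had 294 and 262 against 245 and 154 (-0.67). Calb1, the cytoplasmic calcium buffer calbindin, had 426 and 356 against 347 and 233 (-0.57), just short of 1.5-fold. In Gng13, Rgs8 and Calb1 the 12-week 92Q score was below that of 29-week wild type.

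Proteins that link glutamate receptors to calcium release gave similar ratios. Itpka, a kinase that phosphorylates IP3, had the lowest ratio of the marker list at -0.77, with 35 and 28 in wild type and 28 and 16 in 92Q. Car8, an inhibitor of IP3 binding to its receptor, had 307 and 263 against 257 and 167 (-0.62). Grid2ip, a scaffold at the synapse from granule neurons, had 30 at both ages in wild type and 24 and 15 in 92Q (-0.64). Grid2ip was thus level in wild type, while Itpka and Car8 were lower there with age as well.

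Another marker of the list is the glutamate transporter Slc1a6, with 79 and 69 against 66 and 45 (-0.54). Fam107b had 73 and 64 against 55 and 34 (-0.68). Nefh, the heavy neurofilament subunit, was the exception: it scored 62 and 66 in wild type and 69 and 73 in 92Q (0.08). Stmn4, a regulator of tubulin, was nearly level in 92Q at 95 and 93, and the transcription factor Ebf1 was 23 at both ages. Rora, the gene of ROR-alpha itself, scored 65 and 64 in wild type and 61 and 50 in 92Q (-0.28). Split at their mean score over the 4 conditions, the 19 markers with lower scores had a median ratio of -0.32 and the 20 with higher scores one of -0.52.

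The summed score of the 39 markers put the conditions in one order. It was 9710 in 12-week wild type, 8336 in 29-week wild type, 7932 in 12-week 92Q and 5558 in 29-week 92Q. The 12-week mutant sum was thus below the 29-week wild-type sum, and the sum at 29 weeks in 92Q was the lowest. Markers with high scores, such as Pcp4, Pcp2 and Gng13, weigh most in these sums. The order of the sums therefore need not hold for each marker, and Itpka scored 28 in both 29-week wild type and 12-week 92Q.

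**Figure D2:**
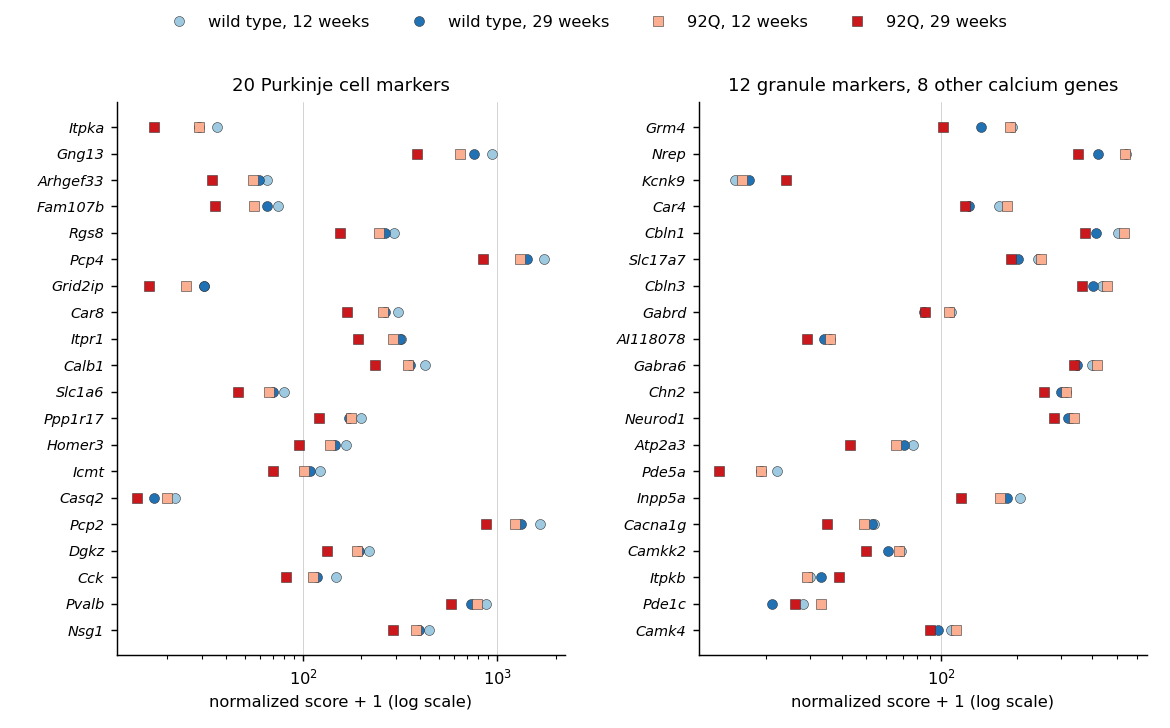
Scores plus 1 on a log scale in each of the 4 conditions for 20 Purkinje cell markers (left) and for 12 granule markers and 8 calcium signalling genes (right); each symbol is the authors' single value for a condition. In the left panel 29-week 92Q is the leftmost symbol for every gene, while granule genes such as Grm4, Car4 and Slc17a7 have their 2 ages apart in both genotypes and their 12-week scores close together.

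The wider set of calcium, IP3 and mGluR1 signalling genes was lower by less. It has 54 measured members, of which 17 are also Purkinje cell markers, and 42 were lower, 6 higher and 6 at least 1.5-fold lower. The median ratio was -0.21, and -0.11 over the 25 members on no other list. Itpr1, the IP3 receptor of the endoplasmic reticulum (chromosome 6, 108213096 to 108551109), scored 318 and 313 in wild type and 290 and 190 in 92Q (-0.61). The wild-type scores of Itpr1 hardly differed by age. Atp2a3, a pump that refills the calcium store, had 76 and 70 against 65 and 42 (-0.62), and Inpp5a, a phosphatase that ends the IP3 signal, had 205 and 181 against 170 and 119 (-0.51). Pde5a, a phosphodiesterase of cyclic GMP, had 21 and 18 against 18 and 12 (-0.55).

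The calcium buffer Pvalb, which Purkinje cells and interneurons both use, scored 878 and 734 in wild type and 788 and 580 in 92Q (-0.44). Pvalb thus differed with age in both genotypes. Among 39 genes mutated in hereditary ataxias, 21 were lower, 10 higher and 2 at least 1.5-fold lower, with a median of -0.05. The 2 at 1.5-fold were Car8 and Itpr1, described above. The T-type calcium channel Cacna1g was at 53 and 52 in wild type and 48 and 34 in 92Q (-0.49).

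Granule neuron markers were lower with age as well, with a smaller median. Of 31 markers 26 were lower and 2 higher, with a median of -0.20 in 92Q and -0.06 in wild type, and 2 were at least 1.5-fold lower and 1 higher. Unlike the Purkinje markers, few had the descending order over all 4 conditions: 6 of the 31 (19.4%). Grm4, a presynaptic receptor that damps glutamate release, scored 191 and 143 in wild type and 187 and 100 in 92Q (-0.90), the lowest ratio of the protein-coding genes with a score of 20 or more in 92Q. Its 12-week scores were close in the 2 genotypes. Cbln1, which granule neurons secrete to hold their synapses on Purkinje cells, scored 507 and 414 against 533 and 373 (-0.51). The vesicular glutamate transporter Slc17a7 scored 242 and 201 against 248 and 188 (-0.40), and the growth-related gene Nrep 545 and 420 against 538 and 350 (-0.62). In all of Grm4, Cbln1, Slc17a7 and Nrep the wild-type score was lower at 29 weeks too. The exception at 1.5-fold was the potassium leak channel Kcnk9, higher at 14 and 16 in wild type and 15 and 23 in 92Q (0.58).

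Markers of the other cerebellar neurons did not move in one direction. Of 17 interneuron and unipolar brush cell markers 10 were lower and 6 higher, with 2 at least 1.5-fold higher and 1 lower (median -0.13, wild type 0.14). The unipolar brush cell transcription factor Eomes was at 16 and 19 in wild type and 11 and 6 in 92Q (-0.78). The vesicular transporter Slc17a6, which neurons of the deep nuclei and many other brain regions use, was at 16 and 21 in wild type and 14 and 24 in 92Q (0.74), and the peptide Sst at 59 and 73 against 48 and 75 (0.63). For Slc17a6 and Sst the 29-week scores were close in the 2 genotypes, and it was the 12-week 92Q score that was lowest. Over 9 marker genes of other brain regions the median was 0.17 in both genotypes, and 2 of them were at least 1.5-fold higher in 92Q: the postsynaptic gene Nrgn, at 69 and 78 against 49 and 84 (0.77), and Tcf7l2, at 16 and 19 against 11 and 19 (0.74). What the dissected tissue held at each age was not tested.

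Receptors were mostly lower by small amounts, while channels and release genes differed little as groups. Of 34 receptors for glutamate, GABA and glycine and their partners 25 were lower and 6 higher (median -0.17), and beside Grm4 and Grid2ip none of the 34 reached 1.5-fold. The auxiliary AMPA receptor subunit Shisa6 scored 45 and 46 in wild type and 42 and 30 in 92Q (-0.47). It was level in wild type. Of 54 voltage-gated, HCN and calcium-activated channels 35 were lower and 17 higher, with a median of -0.07. Of 44 synaptic vesicle and release genes 29 were lower and 14 higher (median -0.05), and the lowest was the calcium sensor Doc2b, at 39 and 37 against 35 and 23 (-0.58). Of 35 G protein subunits and RGS regulators 19 were higher and 10 lower, so Gng13, Rgs8 and Pcp2 were not typical of that family.

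Microglia genes, those of the resident immune cells of the brain, were higher in 29-week 92Q. Of 32 microglia markers named 18 were measured, and all 18 were higher at 29 weeks, 16 by at least 1.5-fold (background 0.978%), with a median ratio of 1.14 against 0.21 in wild type. Of these 7 reached 10 in 29-week 92Q alone, so only the other 11 could have gone either way. Their 12-week scores were close to wild type. The summed score of the 18 was 717 and 736 in wild type and 692 and 991 in 92Q, and the largest single part of each sum is Sparc, which vessels and astrocytes also make and which was level at 480 and 489 in 92Q.

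The 3 chains of C1q, the recognition protein of the classical complement pathway, lie side by side on chromosome 4 and had similar ratios. C1qa (136895917 to 136898803) scored 25 and 26 in wild type and 23 and 63 in 92Q (1.42). C1qb scored 28 and 34 in wild type and 28 and 65 in 92Q (1.19). C1qc (136889804 to 136893065) scored 25 and 28 in wild type and 25 and 61 in 92Q (1.254). In all 3 the scores of the other conditions lay together and 29-week 92Q stood apart. The motif GAGGAAG, the core bound by the myeloid transcription factor PU.1, occurred in the promoters of 4 of the 13 microglia markers with a RefSeq window (30.8%), against 12.5% of the compared genes and 20% of the immediate early genes. Of the 14 windows 35.7% held it, against 10.2% for the compared genes, 25% for the immediate early genes and 17.1% for the clock genes. The C1qc window is shown as an example, since C1qc is one of the 4 microglia markers with the motif. The motif is in capitals as read from the other strand, beginning 194 bases before the start.
C1qc, chr4:136892915-136893164, minus strand: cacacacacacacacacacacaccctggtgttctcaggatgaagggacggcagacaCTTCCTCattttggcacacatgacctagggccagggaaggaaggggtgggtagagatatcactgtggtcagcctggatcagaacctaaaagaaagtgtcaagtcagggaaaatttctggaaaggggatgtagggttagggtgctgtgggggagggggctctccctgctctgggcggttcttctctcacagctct
The same limits hold for this match as for the half-site above.

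Receptors and signalling partners of microglia were higher as well. Tyrobp, the adaptor of several immune receptors (chromosome 7, 30413760 to 30417585), scored 12 at both ages in wild type and 11 and 37 in 92Q (1.66). Fcer1g, the shared chain of Fc receptors, scored 13 and 15 in wild type and 14 and 32 in 92Q (1.14), and Csf1r, the receptor that microglia need to survive, 11 and 12 against 11 and 19 (0.74). The fractalkine receptor Cx3cr1 and the lipid receptor Trem2 are among those that reached 10 in 29-week 92Q alone; Cx3cr1 scored 7 and 9 in wild type and 8 and 13 in 92Q, and Trem2 4 and 5 against 4 and 13. The range within the list was wide, from Sparc at 0.03 to Mpeg1, a pore-forming protein of phagocytes, at 1.68 (4 and 15 in 92Q).

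Genes of activated microglia and macrophages were higher too, with a smaller median of 0.47. Of 54 genes named 19 were measured, 18 were higher and 9 were at least 1.5-fold higher, and 4 reached 10 in 29-week 92Q alone. Lyz2, lysozyme, scored 3 at both ages in wild type and 4 and 22 in 92Q (2.20). Cd52, a surface glycoprotein of leukocytes, scored 4 and 7 in wild type and 6 and 25 in 92Q (1.89). Spp1, the secreted phosphoprotein osteopontin, scored 28 and 27 in wild type and 28 and 64 in 92Q (1.16). Cells of the meninges and choroid plexus can express Spp1 and Lyz2 as well. Lyz2 and Cd52 are among the genes that reached 10 in 29-week 92Q alone, and Spp1 is not.

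Of 8 antigen presentation genes 5 were higher and 2 lower. The invariant chain Cd74 scored 4 and 6 in wild type and 5 and 15 in 92Q (1.42), the class I gene H2-K1 9 and 13 against 10 and 16 (0.63), and B2m, the partner of class I molecules, 173 and 204 against 184 and 236 (0.36). H2-D1, another class I gene, was 39 at both ages in 92Q. Of 4 interferon-response genes 3 were higher, with Lgals3bp at 9 and 12 in wild type and 9 and 21 in 92Q (1.14) and Ifi27 at 14 and 16 against 13 and 22 (0.72). Stat2, which carries the interferon signal to the nucleus, was 19 and 18 in 92Q.

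Lysosomal hydrolases and membrane proteins were higher by small amounts across the list. Of 46 genes 38 were higher, 3 lower and 6 at least 1.5-fold higher, with a median of 0.16 in 92Q and 0.01 in wild type. The 29-week 92Q score was the highest of the 4 for 35 of them. The protease Ctsd scored 182 and 180 in wild type and 171 and 298 in 92Q (0.80). Ctss, a protease of antigen-presenting cells, scored 21 and 30 in wild type and 22 and 55 in 92Q (1.28). Of the 46, 4 are also on the microglia list, Cd68, Ctss and Laptm5 among them.

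**Figure D3:**
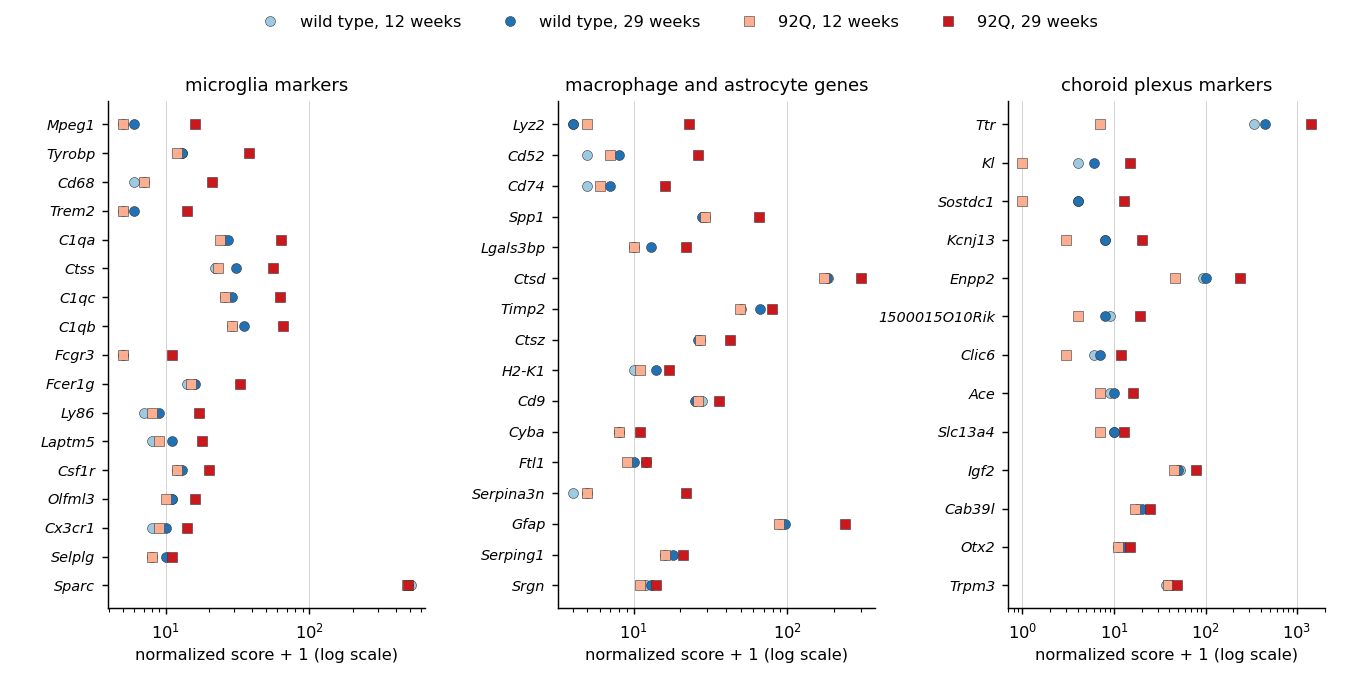
Scores plus 1 on log scales in the 4 conditions for 17 microglia markers (left), 12 macrophage and 4 astrocyte genes (centre) and 13 choroid plexus markers (right); each symbol is the authors' single value for a condition. In the left and centre panels 3 symbols cluster and 29-week 92Q stands to the right for most genes, whereas in the right panel 12-week 92Q also stands to the left, from 6 for Ttr down to Kl and Sostdc1 listed at 0.

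Reactive astrocyte genes were mostly higher, with 2 ratios well above the others. Of 32 named 9 were measured, with 7 higher, 1 lower and 2 at least 1.5-fold higher (median 0.30). Gfap, the intermediate filament of astrocytes (chromosome 11, 102887336 to 102900912), scored 88 and 95 in wild type and 87 and 235 in 92Q (1.42). Serpina3n, a secreted protease inhibitor that reached 10 in 29-week 92Q alone, scored 3 and 4 in wild type and 4 and 21 in 92Q (2.14). Vim, another intermediate filament, was near level at 126 and 116 against 132 and 136 (0.04).

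General markers of astrocytes and Bergmann glia did not shift as a group. Of 32 measured markers 18 were higher and 14 lower, 0 reached 1.5-fold, and the median was 0.05. The lipid carrier Apoe, which microglia also make, scored 1105 and 1062 in wild type and 1094 and 1552 in 92Q (0.50), and the secreted chaperone Clu 463 and 468 against 446 and 572 (0.36). The GABA transporter Slc6a11 was higher with age in both genotypes, at 59 and 81 in wild type and 57 and 85 in 92Q (0.57). Going the other way were the Bergmann glia genes Fabp7, at 22 and 12 in wild type and 25 and 17 in 92Q (-0.53), and the glutamate transporter Slc1a3, at 394 and 361 against 375 and 323 (-0.21). Slc6a11, Fabp7 and Slc1a3 thus had the same direction in wild type, while Apoe and Clu did not differ there by more than 1.1-fold.

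Myelin genes were mostly higher, by small amounts. Of 41 genes 38 were higher and 1 lower, with a median of 0.21 in 92Q and 0.00 in wild type, and the age ratio in 92Q was above that in wild type for 39. The 29-week 92Q score was the highest of the 4 for 30 of them. The 12-week 92Q score was the lowest for 15, against 608 of all 7667 genes. The myelin glycoprotein Mag scored 96 and 95 in wild type and 96 and 118 in 92Q. Mbp, the main myelin basic protein, scored 2614 and 2723 in wild type and 2492 and 2897 in 92Q (0.22). Only 2 genes reached 1.5-fold, the cytokine Il33, at 21 and 31 against 23 and 35 (0.58), and Enpp2. Enpp2 encodes the secreted enzyme autotaxin and is made by oligodendrocytes and in larger amounts by choroid plexus; it scored 92 and 101 in wild type and 45 and 238 in 92Q (2.38). Of 9 markers of oligodendrocyte precursors 8 were higher, among them the lineage factors Olig1, at 55 and 57 against 57 and 72 (0.33), and Sox10, at 24 and 27 against 24 and 30 (0.31).

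Choroid plexus genes had the largest ratios, and here both ages of 92Q lay apart from wild type. The choroid plexus is the epithelium in the ventricles that makes cerebrospinal fluid, and the fourth ventricle lies against the cerebellum. Of 38 markers named 13 were measured, and all 13 were higher at 29 weeks. At least 1.5-fold higher were 10 (background 0.978%), and the median ratio was 2.0, against 0.15 in wild type. For 11 of the 13 the 12-week 92Q score was the lowest of the 4 conditions, and for all 13 the 29-week 92Q score was the highest. Of the 13, 7 reached 10 in 29-week 92Q alone, so for these 7 the direction and the highest place were fixed by that. The summed score was 585 and 713 in wild type and 178 and 1905 in 92Q.

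Ttr, the thyroid hormone carrier that is the most abundant product of this epithelium, made up most of that sum in all conditions but 12-week 92Q. It scored 336 and 445 in wild type and 6 and 1403 in 92Q (7.65). The potassium channel Kcnj13 scored 7 at both ages in wild type and 2 and 19 in 92Q (2.74), and the chloride channel Clic6 5 and 6 against 2 and 11 (2.0). Kl and Sostdc1 were listed at 0 in 12-week 92Q and scored 14 and 12 at 29 weeks, so no ratio is given. Igf2, a growth factor of meninges and choroid plexus, scored 51 and 49 in wild type and 44 and 77 in 92Q (0.79). The 12-week mutant pools thus had less of this RNA than either wild-type condition and the 29-week pools had more.

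Meningeal and fibroblast markers shared part of this pattern. Of 18 markers 17 were higher, 5 by at least 1.5-fold (background 0.978%), with a median of 0.44. For 11 of them 12-week 92Q was the lowest of the 4 conditions. Of the 18, 2 are also choroid plexus markers, Igf2 and Slc13a4, and Spp1 is also on the macrophage list. Over the 7 on no other list the median was 0.49. Igfbp2, a binding protein of insulin-like growth factors, scored 23 at both ages in wild type and 17 and 52 in 92Q (1.56), and the matrix protein Mgp 39 and 43 against 29 and 41 (0.49). Of 5 blood cell genes 3 were higher and 1 lower; the beta globin gene Hbb-b2 scored 16 and 15 in wild type and 16 and 22 in 92Q (0.44). Endothelial and pericyte markers were near level, with 8 of 16 higher, 5 lower and a median of 0.02.

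These marker signals move with the age comparison in 92Q in the same columns as the microglia, macrophage, lysosome, astrocyte and myelin results, and their part in those results was not tested. Of the 75 genes at least 1.5-fold higher, 42 had their other scores close to that of 12-week wild type. In these, the later wild-type score and the 12-week 92Q score each lay within 0.32 of it on the log2 scale. For this count the later wild-type score and the 12-week 92Q score were not compared with each other. Lower in 92Q than in wild type by at least 0.32 at 12 weeks already were 18 of the 75. Among the 37 lower genes the same 2 counts were 20 and 9. Shares over all genes were not counted, so these counts are not read as a trait of the higher genes. Y-linked and X-inactivation RNA, which follow the sex of the pooled mice, were similar at the 2 ages of 92Q: Eif2s3y scored 12 and 15, Ddx3y 9 and 11 and Xist 30 and 25. In wild type Eif2s3y was 0 and 6 and Xist 66 and 63, so the genotypes differ more in this respect than the ages of 92Q do. The wild-type ages differed too: 2 of the 6 sex-linked genes were at least 1.5-fold higher with age there, and 0 in 92Q. The part of sex in the wild-type age ratios was not tested.

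**Figure D4:**
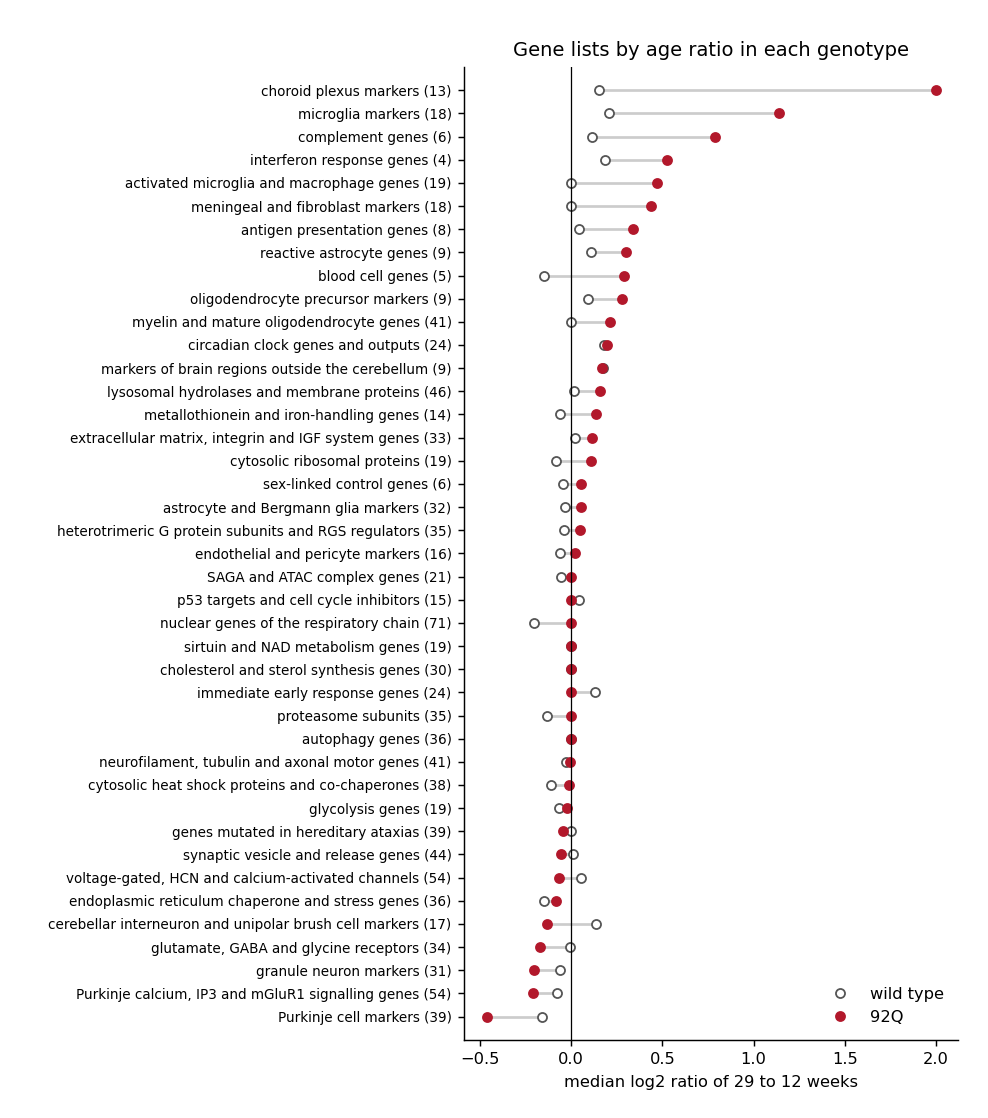
Median log2 age ratio (29 over 12 weeks) of 41 gene lists in 92Q (filled) and wild type (open), with the number of measured genes in brackets. Choroid plexus (2.0) and microglia markers (1.14) have the highest 92Q medians and Purkinje cell markers (-0.46) the lowest, while respiratory chain genes differ from 0 only in wild type (-0.21).

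Some lists were lower with age in wild type and not in 92Q. The 71 nuclear genes of the respiratory chain, which encode the complexes of mitochondrial energy production, had a median of 0.00 in 92Q with 33 higher and 31 lower, whereas in wild type 67 were lower and 1 was higher, with a median of -0.21. In Sdhb, a subunit of complex II, the scores were 83 and 75 in wild type and 75 and 83 in 92Q. Proteasome subunits had medians of 0.00 and -0.13, with 29 of 35 lower in wild type. Of 80 cytosolic ribosomal proteins named only 19 were measured, and these had medians of opposite sign, 0.11 in 92Q with 14 higher and -0.09 in wild type. In 68 of the 71 respiratory chain genes the 92Q age ratio was above that of wild type.

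Transcript length moved with this pattern. Over all genes, put in 4 groups of about equal size by the longest GENCODE transcript, the median age ratio in wild type ran from -0.11 in the shortest group (up to 2294 bases) through -0.04 and 0 to 0.05 in the longest (from 4999 bases), while in 92Q it was 0 in each of the 4 groups. The median length was 1129 bases for the respiratory chain list, 1248 for ribosomal proteins and 1970 for proteasome subunits. The part of length in these differences was not tested. Purkinje cell markers had a median length of 3702 and microglia markers one of 2102.5, in length groups where the median ratio of all genes in 92Q was 0.

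Chaperones of the endoplasmic reticulum were lower with age in both genotypes. Of 36 such genes 22 were lower and 6 higher in 92Q, with a median of -0.08, against -0.15 in wild type, where 28 were lower. The chaperone Hspa5 scored 155 and 104 in wild type and 125 and 88 in 92Q (-0.50). Manf, a secreted survival factor of stressed cells, scored 38 and 28 against 33 and 23 (-0.50), and Xbp1, a transcription factor of the unfolded protein response, 111 and 84 against 96 and 69 (-0.47). The only member at 1.5-fold was Sdf2l1, at 18 and 11 in wild type and 14 and 8 in 92Q (-0.74). Cytosolic heat shock proteins, which include the chaperones that act on misfolded polyglutamine proteins, had a median of -0.01 over 38 genes and 0 at 1.5-fold. Hspb8, a small heat shock protein, scored 20 and 19 in wild type and 20 and 25 in 92Q (0.31).

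Clock genes also moved in the same direction in both genotypes. Of 24 clock genes and outputs 18 were higher and 6 lower in 92Q, with medians of 0.20 in 92Q and 0.18 in wild type. The repressor Per2 scored 10 and 22 in wild type and 10 and 16 in 92Q (0.63), Per1 26 and 43 against 23 and 34 (0.54), and the activator Arntl 17 and 13 against 16 and 11 (-0.50). The labels give no hour of collection, and its part was not tested. The largest ratio of the list was that of Sgk1, a kinase induced by glucocorticoids, at 40 and 44 in wild type and 28 and 51 in 92Q (0.84). The promoter motif CACGTG, the E-box that clock activators bind, was found for 5 of 19 clock genes (26.3%), against 10.5% of the compared genes, and for 5 of 20 immediate early genes (25%). By start windows the shares were 17.1% for clock genes and 17.9% for immediate early genes, against 8.42% for the compared genes.

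Immediate early genes, which neurons switch on when active, were level with age in 92Q. Of 24 genes 10 were higher and 8 lower, with a median of 0.00, while the wild-type median was 0.13 and 7 members were at least 1.5-fold higher there. Fos scored 13 and 27 in wild type and 8 and 10 in 92Q (0.29). Nr4a1, a nuclear receptor induced by activity, scored 15 and 24 in wild type and 12 and 11 in 92Q. The phosphatase Dusp5 was lower with age in 92Q and level in wild type, at 88 and 89 against 76 and 46 (-0.71). The element TGACGTCA, bound by CREB, was in the promoters of 3 of 20 of these genes (15%), against 3.46% of the compared genes. By start windows the shares were 10.7% and 2.84%.

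The remaining groups had medians near 0 in 92Q. Subunits of SAGA and the related ATAC complex, where ataxin-7 resides, had a median of 0.00 over 21 genes with 8 higher and 6 lower, and its deubiquitinase adaptor Atxn7l3 scored 45 and 43 in wild type and 43 and 44 in 92Q. Autophagy genes (36), sirtuin and NAD genes (19), cholesterol synthesis genes (30) and p53 targets (15) also had medians of 0.00, glycolysis genes one of -0.02 over 19 and cytoskeletal and axonal motor genes one of -0.01 over 41. Metallothionein and iron genes lay slightly above, with a median of 0.13 over 14; the metal-binding Mt2 scored 492 and 431 in wild type and 453 and 586 in 92Q (0.37) and the ferritin Fth1 1769 and 1708 against 1576 and 1818 (0.21).

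The genes on no list that are named here were chosen after their values were seen unless they are among the 15 strongest in a direction with a score of 20 or more. Higher were the paired membrane proteins Tmem176a, at 6 and 7 in wild type and 6 and 13 in 92Q (1.0), and Tmem176b, at 24 at both ages against 19 and 33 (0.77), which immune cells express. The serotonin receptor Htr2c, a known product of choroid plexus, scored 6 and 9 in wild type and 5 and 13 in 92Q (1.22). Lower were Stk17b, a kinase of the death-associated family, at 35 and 29 against 30 and 17 (-0.78), the water channel Aqp6 at 24 and 23 against 28 and 16 (-0.77), Cep76, a centrosomal protein, at 47 and 39 against 37 and 22 (-0.72), and Necab3, a calcium-binding protein, at 23 and 16 against 21 and 13 (-0.65). Car7, a cytosolic carbonic anhydrase, scored 51 and 47 in wild type and 44 and 29 in 92Q (-0.58).

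Some of these values are uncertain by their construction. The small nucleolar RNA AF357426 was at 0 in 12-week 92Q and at 100 at 29 weeks, against 309 and 321 in wild type, and Rmrp, the RNA of RNase MRP, scored 40 and 1 in wild type and 7 and 1 in 92Q; short RNAs like these account for 1 of the 75 and 3 of the 37. Cers1, a ceramide synthase at 16 and 7 in 92Q, shares its transcript region with Gdf1, at 23 and 34, and the sum of the pair was 39 and 41, so the share of each is uncertain. Rounding also matters at low scores: 50 of the 75 and 24 of the 37 stay past 1.5-fold over the whole range that rounding allows. At the line itself, 8 higher and 4 lower genes sit exactly on 1.5-fold, such as Ezr at 7 and 11 and Lgals1 at 17 and 26, while just short of it were Resp18 at 68 and 102 and Cdr1 at 224 and 150. At the minimum of 5, the lowest gene was Nr4a3, with 5 at both ages in 92Q, and 0 named genes were left out by it.

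The age ratios of 92Q and wild type share no column, so they can be set against each other. Over the 7667 genes Pearson's r was 0.32 and Spearman's rho 0.46, as a description across genes, which are not independent. Over all genes compared, 2490 were higher with age in wild type and 3517 lower. Of the 75 higher genes 55 were also higher with age in wild type, 5 were lower and 15 equal, with a median wild-type ratio of 0.19, and 4 were at least 1.5-fold higher there. Of the 37 lower genes 31 were also lower in wild type, with a median of -0.22, and 3 were at least 1.5-fold lower.

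**Figure D5:**
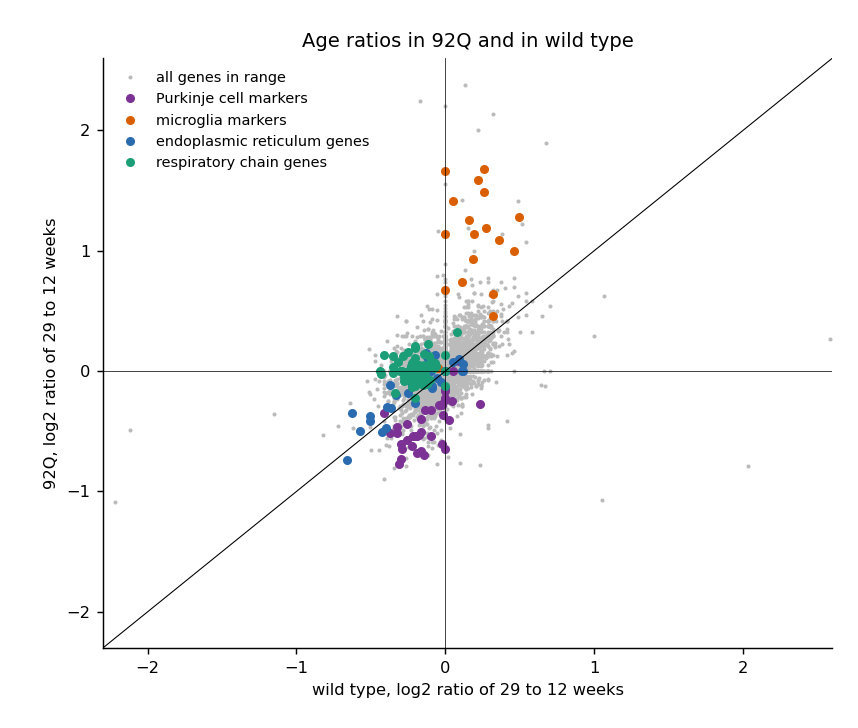
Log2 age ratio (29 over 12 weeks) of each gene in wild type (x) and in 92Q (y), with 4 lists coloured and the line of equality; 9 genes outside -2.3 to 2.6 are not drawn. Purkinje cell markers lie mostly below the diagonal in the lower left, microglia markers stand high near or just above a wild-type ratio of 0, and respiratory chain genes spread to the left at a 92Q ratio near 0.

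A second deposited table holds 99 genes, and how the authors picked them is not stated in the labels. In the authors' deposited table all 99 rows held the same 4 scores as the table of all genes. Between 12 and 29 weeks in 92Q, 29 genes of the authors' deposited table were higher, 68 lower and 2 equal. It holds 22 of the 75 higher and 26 of the 37 lower genes described above. Since that table was drawn from these samples, it is not independent evidence of their direction. Atxn7 was not analysed here, and the labels of genotype rest on the submitters alone.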

How the data were processed

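Total RNA of 12 cerebellar libraries, each a pool of 3 mice, was isolated with TRIzol and RNeasy columns, made into TruSeq libraries and read as single ends of 50 bases, per the labels' protocols. Bowtie 0.12.7, SAMtools 0.1.12a, Cuffdiff 1.3.0 and build mm10 are named in the submitters' processing notes without role or order. The authors deposited a normalized score as whole numbers, 1 for each gene in each condition. Its unit, the filters and the annotation behind it have no description in the labels or headers. Library depth is unknown and counting intervals were not computed. Every gene had reached 10 in some condition.

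From these scores log2 ratios were computed with a pseudocount of 1 and a minimum of 5 in one or both 92Q columns (Python 3.11.15, pandas 2.3.3, numpy 2.4.6, figures with matplotlib 3.10.9). With 1 value per condition no test was made. Genes were counted at 1.5-fold, rounding ranges moved each score by 0.5, and 41 gene lists (948 measured genes) were described by counts and medians beside all genes. Members and lists were chosen with earlier results of these data known, some after the data had been seen, so they are no independent support. Named were the 15 highest and 15 lowest ratios with a score of 20 or more in one or both 92Q columns, up to 6 members per list with the largest ratios, and the sex-linked genes; other genes named, such as list members given as examples, were chosen after their values were seen. Positions are from GENCODE M21 (GRCm38, the assembly of mm10), where 7327 genes were placed, and promoters from RefSeq on GRCm38.p6. The calculation was tested on simulated data. Alternatives were other pseudocounts, minima, thresholds, scalings and list memberships. Some genes that the rule would name are not reported here.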

Additional observations from a re-analysis of the deposited data

Results flagged for a closer look

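For 2 small nucleolar RNAs the age ratio had opposite signs in the 2 genotypes, at least 1.5-fold each way, and the difference was not tested. AF357399 scored 29 and 122 in wild type at 12 and 29 weeks and 75 and 43 in 92Q, so its log2 ratio in 92Q was lower than in wild type (difference -2.82). AF357425 scored 83 and 173 in wild type and 171 and 81 in 92Q (difference -2.12).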

How the results depend on the processing

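No paired analysis was possible because each condition has 1 value, and for the same reason no library could be left out. Against 75 higher and 37 lower genes, a pseudocount of 5 gave 45 and 20, a 2-fold threshold 32 and 3, and a looser threshold of 0.32 on the log2 scale 276 and 189. A minimum of 20 gave 35 higher genes, and leaving out genes that reach 10 in 1 condition only, chosen after seeing the data, gave 48; the other 18 of 26 count settings stayed within 1.5 times. Scalings moved the median of all genes by at most -0.01. The Purkinje median of -0.46 became -0.33 over the 13 markers on no other list and -0.31 as a difference from wild type. The calcium signalling median of -0.21 became -0.11 over 25 genes on no other list and -0.32 over the 43 that reach 20. The microglia median of 1.14 was 0.89 with a pseudocount of 5, 1.254 over the 9 genes at 20 or more and 0.85 as a difference from wild type. The choroid plexus median of 2.0 became 2.40 and 1.19 at pseudocounts of 0.1 and 5, 0.79 over the 5 genes at 20 or more, 0.84 over the 8 at 5 or more in both columns, 1.46 after quantile normalization, 2.25 over 9 genes on no other list and 1.78 as a difference from wild type. Of the medians at least 0.1 away from 0, another 3 changed sign. Complement was -0.15 over its 1 member on no other list. As differences from wild type, other brain regions were -0.0121 and clock genes -0.07865. Some medians nearer 0 also changed sign as differences from wild type. Among them were endoplasmic reticulum chaperones (-0.08 to 0.07) and cytosolic heat shock proteins (-0.01 to 0.12).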
